A study of Bos taurus with 6 samples.

Results

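Small heat shock proteins are compact chaperones that share an alpha-crystallin domain and hold unfolding proteins in a soluble state until chaperones that use ATP can refold them or pass them on for degradation. Several members of the family are enriched in muscle and other contractile cells, where they guard actin, intermediate filaments and the Z-disc, while others are found in almost every cell type. The 9 genes described here were chosen by their symbols: HSPB1, HSPB2, HSPB3, HSPB6, HSPB7, HSPB8, HSPB11 and CRYAB, together with BAG3, the co-chaperone that joins HSPB8 to HSP70. HSPB7 was also among the genes that the study picked from these libraries for real-time PCR, so its difference is not independent evidence. All 9 were found by symbol among the 23475 genes of the deposited table.

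Bovine (Bos taurus) preadipocytes, the precursors of fat cells, had been isolated from the subcutaneous fat of calves. RNA was collected 48 h after transfection for 3 libraries of cells given the agomir of bta-miR-484 and 3 of cells given the agomir NC. Agomirs are stabilised miRNA mimics, and the agomir NC served as the negative control. It is not stated how the calves or cultures are divided among the libraries, so an SD or a p-value covers only the spread between these samples, which may be technical. The labels call the cells adipocytes. Of 8 markers of the mature fat cell 5 had a mean of at least 0.5 FPKM, LPL, PPARG, FABP4, PLIN1 and CEBPA, with means of 3.73, 3.55, 2.39, 1.23 and 0.535 FPKM. The other 3 were lower: ADIPOQ, which encodes adiponectin, lay at no more than 0.197 FPKM in any library, CIDEC at no more than 0.230 FPKM and LEP at no more than 0.0368 FPKM. The fibroblast and preadipocyte genes COL3A1, DCN and PDGFRA had means over all 6 libraries of 7623, 2989 and 166 FPKM, whereas DLK1 was listed at 0 in all 6.

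Levels are in FPKM, fragments scaled to the length of the transcript and to the mapped fragments of the library. No read numbers were used here, which leaves the depth unknown and every value without a counting error. Summed FPKM ranged from 365977 to 379361 over the libraries, with agomir NC replicate 3 the highest. Groups were compared on log2(FPKM + 0.5), a scale that understates the fold change of genes at low FPKM, with limma's moderated test, for the 12422 genes whose mean over the 6 libraries reached 0.5 FPKM. Of the 9 genes, 8 were tested, and HSPB3 was not. The filter did not admit any of these 8 members through its higher group alone, because their lowest value in any library was 0.661 FPKM.

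The family covered a wide range of levels in these cells. HSPB1, which encodes the general stress chaperone HSP27 that binds actin filaments, had the highest mean of the agomir NC group, 146 ± 7.92 FPKM (SD, n = 3), and lay above 97.3% of the genes tested. HSPB6, or HSP20, which is known for its part in smooth and cardiac muscle relaxation, followed at 86.7 ± 5.08 FPKM (SD, n = 3). BAG3 at 32.4 ± 1.37 FPKM and HSPB8 at 30.8 ± 0.921 FPKM (SD, n = 3 each) were next and were close to each other in level. Far below them came CRYAB, which encodes the alpha-B crystallin chain of lens and muscle, at 6.01 ± 1.26 FPKM, and HSPB11 at 4.97 ± 0.553 FPKM (SD, n = 3 each), and these ranges overlapped. HSPB7 at 2.14 ± 0.189 FPKM and HSPB2 at 1.23 ± 0.339 FPKM (SD, n = 3 each) were the lowest of the members with a value above 0. HSPB3, a muscle form that partners with HSPB2, was listed at 0 in every library.

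With the agomir the order of the means was the same except that HSPB8 and BAG3 changed places. HSPB7 had a mean of 1.29 ± 0.155 FPKM and HSPB2 one of 1.11 ± 0.472 FPKM (SD, n = 3 each), and their ranges overlapped, which they did not with the agomir NC. HSPB8, at 34.5 ± 1.11 FPKM, lay above BAG3, at 30.3 ± 0.613 FPKM (SD, n = 3 each), in each agomir library. Among the 7 alpha-crystallin family members HSPB1, HSPB2, HSPB3, HSPB6, HSPB7, HSPB8 and CRYAB, the summed FPKM was 286, 281 and 276 in the agomir libraries and 265, 270 and 284 in the agomir NC libraries, so the groups overlapped. HSPB1 and HSPB6 together made up between 84.6% and 86.1% of that sum in every library, and HSPB7 between 0.392% and 0.862%. The small heat shock protein transcripts of this culture were thus mostly those of HSPB1 and HSPB6, with and without the agomir.

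**Figure D1:**
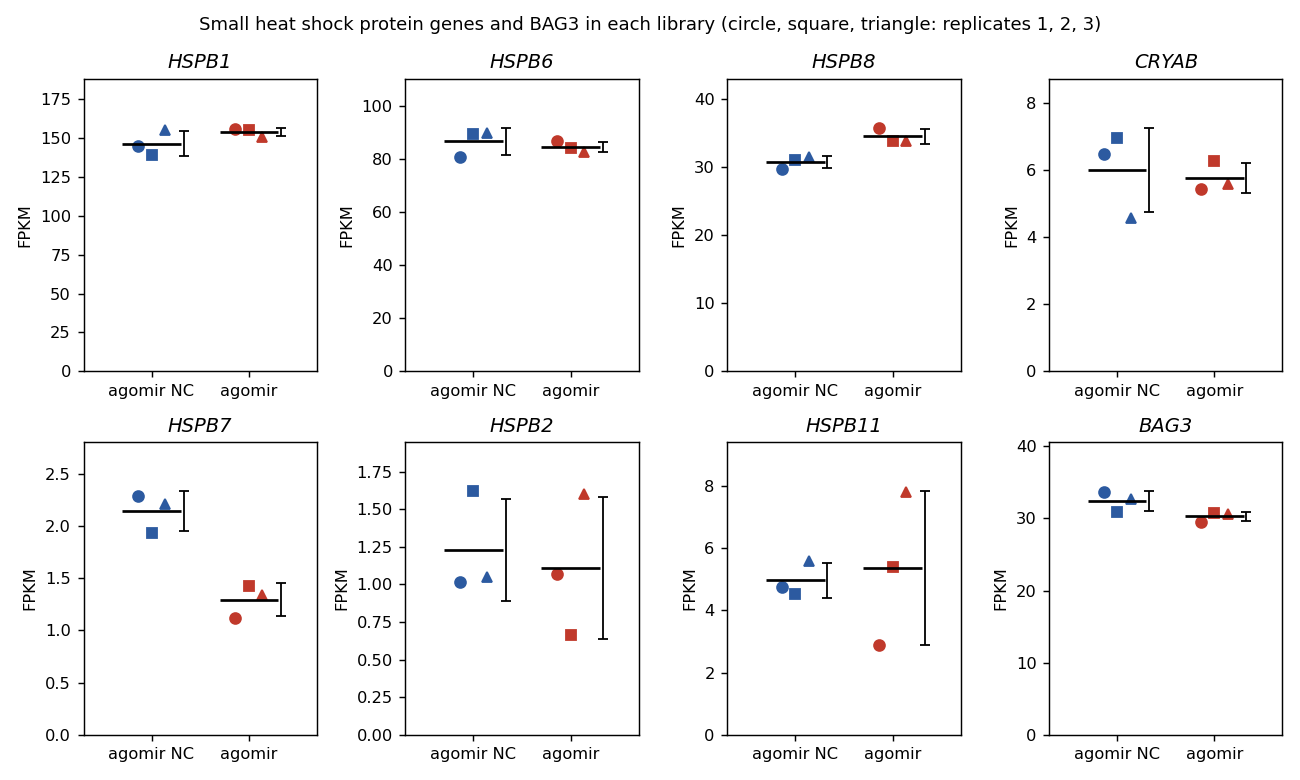
FPKM of the 8 genes with values above 0 in each of the 6 libraries, with 1 panel a gene and the vertical axis from 0. Points are libraries (circle, square and triangle for replicates 1, 2 and 3), horizontal lines are group means and the bars beside them are SDs (n = 3). The agomir points of HSPB7 and BAG3 lie below and those of HSPB8 above all agomir NC points, and the groups of the other 5 genes overlap.

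HSPB7 and HSPB8 were the members with an unadjusted p under 0.05, HSPB7 lower and HSPB8 higher with the agomir. This was 2 of 8 members, where 10.9% of all genes tested were under that threshold. By direction it was 1 lower member, where 4.31% of all genes were lower at that threshold, and 1 higher member, where 6.63% were higher. These shares moved with gene span: 7.25% of the genes in the class of shortest span and 2.60% of those in the longest were lower, while 4.78% and 8.19% were higher. HSPB7 falls in the class of 3 to 10 kb, where 6.24% were lower. HSPB8 falls in that of 10 to 30 kb, where 5.93% were higher. HSPB7 was at -0.54 once the trend with span was removed. After Benjamini-Hochberg adjustment over all genes tested in limma, 0 of the 8 members were under 0.05, against 0.00805% of all genes, and the lowest adjusted p among them was 0.218. The agomir and agomir NC libraries did not overlap in 3 of the 8 members, HSPB7, HSPB8 and BAG3, and in 17.2% of all genes tested. The median log2 fold change of the 8 members was -0.036, that of all genes tested 0.013, and 3 members had a positive and 5 a negative value. Among the positive ones HSPB11 turned negative, between -0.019 and -0.0012, with median-ratio scaling, quantile normalization or a trend of the values with gene span removed. With 8 genes these counts are descriptions and no test of the family.

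HSPB7, also known as the cardiovascular heat shock protein, is a small family member of heart and skeletal muscle that binds filamin C and keeps aggregation-prone proteins soluble. It was at 1.12, 1.42 and 1.34 FPKM across the agomir replicates, against 2.29, 1.93 and 2.21 FPKM for the agomir NC. All 3 agomir libraries were low and all 3 agomir NC libraries high, and the gap between the groups, from 1.42 to 1.93 FPKM, was wider than the range within either. The ratio of the means, agomir over agomir NC, was 0.604. The log2 fold change was -0.56 (standard error 0.12, 95% interval from -0.83 to -0.29), where limma gave an unadjusted p of 0.000996 and, adjusted over all genes tested, 0.218. By its unadjusted p it ranked at place 53 of the 12422 genes. The exact two-sided permutation test of its FPKM over the 20 labelings of the libraries gave p = 0.1, which is the lower limit of this design.

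Leaving out any 1 library kept HSPB7 lower with the agomir, and the log2 fold change then ranged from -0.62 to -0.49. Its size depended on the pseudocount, and it was -0.69 when 0.1 and -0.45 when 1 was added to the FPKM. Within the HSPB family the gene is a minor transcript: HSPB6 and HSPB1 were far more abundant in the same libraries, and HSPB1 exceeded HSPB7 by a ratio of between 63.4 and 72.1 in the agomir NC libraries and of between 109 and 139 in the agomir libraries. By its mean with the agomir NC, HSPB7 lay above 18.5% of the genes tested. The number of genes listed above 0 also differed, from 16207 to 16255 in the agomir libraries and from 16300 to 16360 in the agomir NC libraries, without overlap. The part of this difference in the result for HSPB7 was not tested.

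For its real-time PCR of HSPB7 the study used the pair of primers shown here. The primers were not aligned to any transcript. They are written 5′ to 3′ as designed, without capitals, since no position was compared. The forward primer has 19 bases and a GC content of 63.2%, and the reverse primer has 20 bases and a GC content of 55%. The PCR measurements themselves were not analysed here.
HSPB7 forward: ccctgggagacgcctatga
HSPB7 reverse: tgtggttgttggaggtggtg

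The 3 genes whose profile over the 6 libraries was nearest to that of HSPB7, by the root mean square difference of centred log2 values among 11244 named genes, were ACAD9, LY6E and GPBAR1, at distances of 0.098, 0.111 and 0.116. ACAD9, which encodes a mitochondrial protein of complex I assembly, was at 3.29, 3.71 and 3.95 FPKM across the agomir replicates, against 5.32, 4.70 and 4.85 FPKM for the agomir NC. LY6E, a gene of the LY6 family of membrane-anchored proteins, had means of 0.720 and 1.10 FPKM, and GPBAR1, a bile acid receptor gene, of 0.547 and 0.958 FPKM, with the agomir first. These genes were selected for their likeness to HSPB7, so their difference between the groups is a description.

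HSPB8, or HSP22, forms a complex with BAG3 that hands damaged proteins to HSP70 and on to autophagy. It was at 35.8, 33.9 and 33.9 FPKM across the agomir replicates, against 29.7, 31.0 and 31.5 FPKM for the agomir NC. Every agomir library was above every agomir NC library, although the step was small. The ratio of the means was 1.12 and the log2 fold change 0.16 (standard error 0.049, 95% interval from 0.054 to 0.27), where limma gave an unadjusted p of 0.00795 and, after adjustment, 0.321. The exact two-sided permutation test again gave its smallest value, p = 0.1. When any 1 library was omitted, the value lay between 0.14 and 0.18, and the unadjusted p in limma stayed under 0.05 in all 16 alternative settings, as it did for HSPB7. The genes on either side of HSPB8, CCDC60 and SRRM4, were at means of no more than 0.0264 FPKM in either group.

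BAG3 binds HSPB8 and HSP70 and leads client proteins, filamin among them, to selective autophagy. It was at 29.6, 30.7 and 30.6 FPKM across the agomir replicates, against 33.6, 30.9 and 32.7 FPKM for the agomir NC. The groups did not overlap, but agomir NC replicate 2 at 30.9 FPKM and agomir replicate 2 at 30.7 FPKM nearly met. The log2 fold change was -0.096 (standard error 0.050, 95% interval from -0.21 to 0.016), and its unadjusted p of 0.0841 in limma did not pass 0.05. Without agomir NC replicate 2 the unadjusted p was 0.0360 and the log2 fold change -0.13. It was also under 0.05 with median-ratio scaling (0.0424) and with a trend on gene span removed (0.0441), but not in the other settings. The highest unadjusted p was 0.236 in limma, without agomir NC replicate 1, where the log2 fold change was -0.070. The adjusted p lay between 0.418 and 0.682 over all 16 alternative settings. HSPB8 divided by BAG3, a ratio chosen after both had been seen, was 1.21, 1.10 and 1.11 in the agomir libraries and 0.884, 1.00 and 0.964 in the agomir NC libraries, and these did not overlap. In FPKM, HSPB8 exceeded BAG3 in all 3 agomir libraries and, by a narrow margin, in agomir NC replicate 2.

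The abundant members were HSPB1 and HSPB6, and in both the groups overlapped. HSPB1 was at 156, 155 and 151 FPKM across the agomir replicates, against 145, 139 and 155 FPKM for the agomir NC, where agomir NC replicate 3 lay within the agomir range. Its log2 fold change was 0.072 (standard error 0.047), and the 95% interval of the fold change ran from 0.978 to 1.13. The unadjusted p was 0.154 in limma. It was 0.0245 without agomir NC replicate 3, where the log2 fold change was 0.11. The unadjusted p was 0.0492 with quantile normalization and 0.0227 with the gene span trend removed. In limma it rose to 0.441 without agomir NC replicate 2, where the log2 fold change was 0.037, and to 0.277 without a variance trend. HSPB6 was at 86.7, 84.2 and 82.8 FPKM across the agomir replicates, against 80.8, 89.5 and 89.8 FPKM for the agomir NC. The groups overlapped, and the 95% interval of the fold change ran from 0.903 to 1.06 (unadjusted p = 0.508 in limma). Its log2 fold change was -0.035, and it lay between -0.084 and -0.0086 with 1 library omitted.

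CRYAB and HSPB2 are neighbours in the RefSeq table, and in mammals the pair lies head to head on a shared intergenic promoter region. CRYAB was at 5.44, 6.28 and 5.59 FPKM across the agomir replicates, against 6.48, 6.98 and 4.58 FPKM for the agomir NC. HSPB2, also named for its binding to the myotonic dystrophy kinase, was at 1.07, 0.661 and 1.60 FPKM across the agomir replicates, against 1.02, 1.62 and 1.05 FPKM for the agomir NC. Both genes overlapped between the groups, and HSPB2 ran at between 0.105 and 0.286 of the CRYAB level. On the log2 scale the 95% interval ran from -0.34 to 0.27 for CRYAB and from -0.62 to 0.37 for HSPB2, so a difference of the size seen in HSPB7, -0.56, lay inside the interval of HSPB2 and outside that of CRYAB. The direction of both genes rested on single libraries. For HSPB2 the log2 fold change was -0.13, but 0.089 without agomir replicate 2 and 0.029 without agomir NC replicate 2. For CRYAB it was -0.037, but 0.00049 without agomir replicate 1, 0.022 without agomir NC replicate 1 and 0.072 without agomir NC replicate 2. The gene beyond HSPB2, C15H11orf52, was listed at 0 in both groups, and the gene beyond CRYAB, CFAP68, is not in the deposited table under that name.

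HSPB11 carries the family's name but is better known as IFT25, the symbol of the RefSeq table, a subunit of the intraflagellar transport B complex that carries cargo into the primary cilium. It was at 2.88, 5.41 and 7.82 FPKM across the agomir replicates, against 4.77, 4.55 and 5.60 FPKM for the agomir NC. The agomir libraries stood on both sides of the agomir NC libraries, and the coefficient of variation was 46.0% with the agomir and 11.1% with the agomir NC. The log2 fold change was 0.013 (standard error 0.26), with a 95% interval of the fold change from 0.672 to 1.51. Single libraries set its direction. Without agomir replicate 1 the log2 fold change was 0.36 (unadjusted p = 0.0404 in limma), and it was -0.29 without agomir replicate 3, -0.040 without agomir replicate 2, -0.012 without agomir NC replicate 1 and -0.043 without agomir NC replicate 2. Over all 16 alternative settings the adjusted p was between 0.502 and 0.999. In the RefSeq table HSPB11 overlaps DIO1, which was at means below 0.01 FPKM in both groups. Its neighbours LRRC42 and YIPF1 had means of 9.94 and 9.25 FPKM, and of 7.08 and 8.03 FPKM, with the agomir first in each pair.

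**Figure D2:**
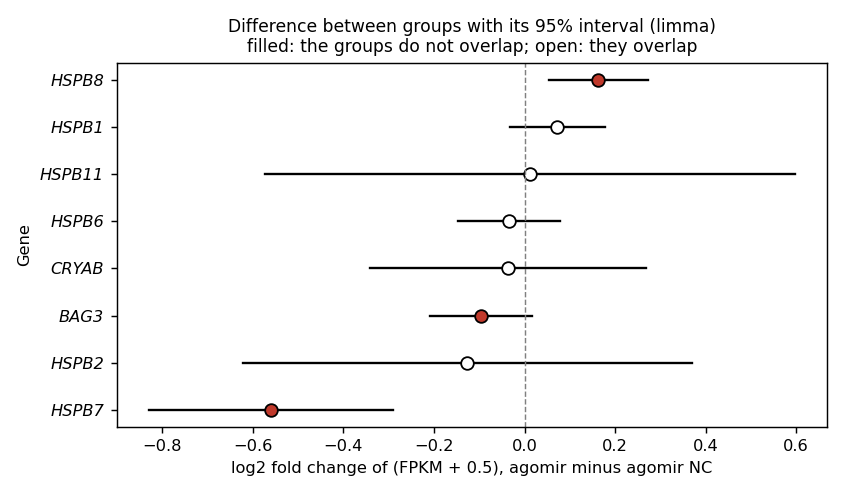
Log2 fold change of FPKM + 0.5, agomir minus agomir NC, for the 8 genes tested, with 95% intervals from limma (n = 3 libraries a group). The intervals of HSPB7, from -0.83 to -0.29, and HSPB8, from 0.054 to 0.27, do not reach 0, and HSPB2 and HSPB11 have the widest intervals among the rest.

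The partners of HSPB11 in its complex were read beside it. Of 15 further intraflagellar transport B genes, all 15 were tested, 0 were higher and 2 lower at an unadjusted p under 0.05 (6.63% and 4.31% of all genes tested), and 0 passed the adjusted threshold in limma. The lower genes were IFT22, at 8.11, 7.32 and 7.47 FPKM with the agomir against 10.1, 8.62 and 9.36 FPKM, and IFT52, with means of 10.1 and 11.2 FPKM. Their log2 fold changes were -0.28 and -0.15. The most abundant gene of the list was IFT20, with means of 19.1 and 19.7 FPKM, and IFT27, the direct partner of HSPB11, was at 13.4 ± 1.95 and 15.4 ± 2.40 FPKM (SD, n = 3 each), with overlapping groups. The median log2 fold change of the list was 0.0035, and it was negative, between -0.035 and -0.011, when libraries were rescaled by median ratios or quantiles or a trend with gene span was removed.

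The remaining small heat shock protein genes were nearly silent. CRYAA, the lens crystallin, and ODF1, a sperm tail protein, were listed at 0 in all 6 libraries. HSPB9, a testis member of the family, was at 0.124, 0.0906 and 0.0818 FPKM across the agomir replicates, against 0.328, 0.291 and 0.224 FPKM for the agomir NC. Its groups did not overlap, but all 6 values were below the filter of 0.5 FPKM, and it was not tested. In a fit without that filter its log2 fold change was -0.38, where limma gave an unadjusted p of 0.00214 and, after adjustment, 0.384.

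Heat shock factors, which switch on many chaperone genes under stress, were read with their regulator HSBP1. HSF5 was at no more than 0.0955 FPKM and was not tested. Of the 4 tested genes of this list, HSF1, HSF2, HSF4 and HSBP1, 0 had an unadjusted p under 0.05 in limma in either direction, beside 10.9% of all genes tested, and 0 passed the adjusted threshold. HSF1 was at 28.4, 31.1 and 29.1 FPKM across the agomir replicates, against 31.0, 28.2 and 31.8 FPKM for the agomir NC, and these ranges overlapped. HSBP1, which binds HSF1 and was the most abundant gene of the list, had means of 43.7 and 46.2 FPKM, with the agomir first, and its agomir libraries were all below its agomir NC libraries (unadjusted p = 0.135 in limma). The median log2 fold change of the list was -0.058. HSPA1A and DNAJB1, known as stress-inducible targets of HSF1, were read beside it as single genes. No list of HSF1 targets was tested. HSPA1A was at 43.8, 41.4 and 44.1 FPKM against 45.9, 48.4 and 44.7 FPKM (log2 fold change -0.10, unadjusted p = 0.0613 in limma), without overlap, and a near-identical paralog makes its value uncertain. DNAJB1, the co-chaperone of inducible HSP70, was at 14.2, 14.4 and 13.4 FPKM against 13.7, 13.6 and 13.9 FPKM, and its groups overlapped.

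Among the larger chaperones, 40 genes of 3 lists were tested (HSP70 and HSP110, HSP40, and HSP90 with the chaperonins and co-chaperones). At an unadjusted p under 0.05 in limma, 5 were higher and 1 was lower with the agomir, which is 15% of them beside 10.9% of all genes, and 0 passed the adjusted threshold. Their log2 fold changes ran from -0.19 to 0.25 with a median of 0.023. In the HSP70 list 2 of 13 genes were higher and 0 lower, beside 6.63% and 4.31% of all genes tested, with a median of -0.017. HSPA8, the constitutive HSP70 that works with BAG3, was at 372, 398 and 354 FPKM against 359, 325 and 349 FPKM, a log2 fold change of 0.12, and its unadjusted p was 0.0483. It was not under 0.05 after median-ratio scaling, where HSPA1A was lower at that threshold instead. HSPA12A, a distant member of the HSP70 family, had means of 7.98 and 6.64 FPKM and a log2 fold change of 0.25. The most abundant gene of that list was HSPA5, the chaperone of the endoplasmic reticulum, at means of 449 and 479 FPKM with overlapping groups.

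In the HSP40 list 2 of 13 genes were higher and 0 lower, beside 6.63% and 4.31% of all genes tested, with a median of 0.078. DNAJB12, a membrane co-chaperone of the endoplasmic reticulum, was at 18.6, 18.7 and 17.4 FPKM across the agomir replicates, against 14.8, 15.8 and 16.0 FPKM for the agomir NC, and its log2 fold change was 0.22 (adjusted p = 0.281 in limma). DNAJA3, a mitochondrial co-chaperone, had means of 27.3 and 24.3 FPKM. DNAJA1 was the most abundant gene of that list, at means of 71.5 and 71.1 FPKM. In the list of HSP90 and the chaperonins 1 of 14 genes was higher and 1 lower, near the shares of 6.63% and 4.31% over all genes, with a median of 0.019. CHORDC1, a co-chaperone of HSP90, was higher at means of 15.1 and 13.3 FPKM, though not after quantile normalization. HSPE1, the small mitochondrial chaperonin, was lower at means of 73.8 and 82.7 FPKM, with overlapping groups. SERPINH1, the collagen chaperone, led that list with 703 and 693 FPKM.

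The genes around BAG3 in selective autophagy and its relatives of the BAG family gave 0 higher and 1 lower of 14 at an unadjusted p under 0.05, beside 6.63% and 4.31% of all genes tested, and 0 at the adjusted threshold in limma. The lower gene was MAP1LC3B, which encodes the autophagosome protein LC3B, at 33.1, 34.7 and 36.3 FPKM across the agomir replicates, against 39.4, 38.0 and 38.6 FPKM for the agomir NC. All agomir libraries were below all agomir NC libraries, and the log2 fold change was -0.16. FLNC, the filamin that HSPB7 and BAG3 bind, was at 23.2, 26.0 and 22.3 FPKM against 22.3, 22.9 and 18.2 FPKM. FLNA was the most abundant gene of the list, with means of 358 and 357 FPKM. STUB1, the ubiquitin ligase CHIP, and SQSTM1, the autophagy receptor p62, had means of 51.7 and 55.1 FPKM and of 179.7 and 180.4 FPKM, and the groups of both overlapped. The median log2 fold change of the list was -4.92e-05, with -0.015 after median-ratio scaling, -0.013 with the gene span trend removed and 0.021 after quantile normalization, where STUB1 was also lower at an unadjusted p under 0.05.

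Because HSPB2, HSPB3, HSPB6, HSPB7 and CRYAB are known from muscle, markers of contractile cells were read beside them. In bulk RNA, fewer cells of a type and less RNA per cell cannot be told apart. Of 11 smooth muscle and contractile markers, 10 were tested and 1, SMTN, was lower at an unadjusted p under 0.05, at means of 21.6 and 23.5 FPKM, where 4.31% of all genes tested were lower. With median-ratio scaling 2 were lower, SMTN and TPM2, where 688 of 12419 genes were lower. The median log2 fold change of these markers was -0.037, with -0.053 after median-ratio scaling, -0.040 with the gene span trend removed and 0.00055 after quantile normalization. The summed FPKM of this list was 1638, 1680 and 1651 in the agomir libraries and 1741, 1632 and 1702 in the agomir NC libraries, which overlapped, and its most abundant gene was TPM1, a tropomyosin, at means of 465 and 467 FPKM. MYH11, the myosin of mature smooth muscle, was at no more than 0.433 FPKM. The part of the contractile markers in the result for HSPB7 was not tested.

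Striated muscle markers were low. MYOD1, MYOG and CKM were listed at 0 in all 6 libraries, and the 11 markers of this list that the table holds summed to 2.00, 1.25 and 0.792 FPKM with the agomir and to 0.638, 1.64 and 1.19 FPKM with the agomir NC, with myoglobin (MB) the most abundant at a mean of 0.735 FPKM. MB was at 1.18, 0.862 and 0.354 FPKM with the agomir against 0.210, 0.940 and 0.859 FPKM, which overlapped, and in agomir replicate 1 it was above HSPB7. DES had a mean of 0.294 FPKM. The part of striated muscle markers in the result for HSPB7 was not tested. Of 6 pericyte markers, 3 were tested, and limma placed 0 of them under an unadjusted p of 0.05, beside 10.9% of all genes tested, which says little for so few genes. The sum of all 6 was 10.4, 10.3 and 12.0 FPKM with the agomir and 11.3, 10.9 and 9.93 FPKM with the agomir NC. CSPG4 was the most abundant at a mean of 5.13 FPKM, and RGS5 was listed at 0 in 5 libraries. For endothelial cells the 6 markers summed to between 3.77 and 4.54 FPKM in every library, most of it VWF at a mean of 3.39 FPKM, while CLDN5 was listed at 0 throughout and PECAM1 was at no more than 0.147 FPKM. The 6 leukocyte markers summed to between 6.93 and 8.27 FPKM, of which CD14 had a mean of 6.27 FPKM, and PTPRC, the common leukocyte antigen, was at no more than 0.119 FPKM. The groups overlapped in the sums of all these lists.

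Markers of the culture's own cell type were read last. Of 9 tested preadipocyte and fibroblast markers 0 were higher and 2 lower at an unadjusted p under 0.05 in limma, where 4.31% of all genes tested were lower. NT5E, the surface enzyme CD73, was at 71.7, 70.6 and 77.5 FPKM across the agomir replicates, against 83.1, 89.2 and 89.4 FPKM for the agomir NC (adjusted p = 0.209), and DCN, the matrix proteoglycan decorin, had means of 2863 and 3114 FPKM. The median log2 fold change of the list was -0.074, with 7 of 9 values negative. With median-ratio scaling or the gene span trend removed, ENG was also lower at an unadjusted p under 0.05, which made 3. In these settings 688 of 12419 and 623 of 11471 genes were lower, in that order. Quantile normalization left NT5E as the lower gene and moved the median to -0.0014, but it sets a gene that holds the same rank in every library to an equal value, as it did DCN and COL3A1, and so cannot show their difference. Of 5 tested adipocyte markers, PPARG and FABP4 were each at an unadjusted p under 0.05 in limma. PPARG, the master regulator of adipogenesis, was higher at means of 3.86 and 3.23 FPKM. FABP4, whose product carries fatty acids, was lower at 1.896 and 2.89 FPKM with overlapping groups. Of all genes tested, 6.63% were higher and 4.31% lower at that threshold. The study also reported lower FABP4 from this same sequencing, so the value here is not independent of that report. By real-time PCR, days after induction of differentiation, the study reported CEBPA, LPL and FABP4 lower with the agomir. These libraries are from 48 h after transfection. In them CEBPA and LPL were not lower, with log2 fold changes of 0.29 and 0.058 and overlapping groups. Over the 5 markers the median log2 fold change was 0.14. CEBPA, 1 of the 5, reached the filter of 0.5 FPKM only through its agomir group, at means of 0.632 and 0.438 FPKM. Its value therefore lends no weight to that median. LPL was the most abundant of the 5 at a mean of 3.73 FPKM. All 8 markers, tested or not, summed to 11.5, 12.3 and 11.4 FPKM with the agomir and to 12.6, 11.0 and 11.1 FPKM with the agomir NC. PPARG was not under 0.05 once the trend with gene span was removed. In the marker lists of muscle, pericytes, endothelial cells, leukocytes, preadipocytes and adipocytes, 0 genes passed the adjusted threshold in limma.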

How the data were processed

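Total RNA was sequenced on an Illumina HiSeq platform in 6 libraries, 3 of each group. Gene levels were used as FPKM, the unit the authors deposited. The submitters' processing notes name fastp, HISAT2, StringTie and the build ARS-UCD1.2, without roles or tool versions. In 1343 genes under 0.2 FPKM in both of 2 libraries, no more than 7 fell together in a bin of 0.002 of their log2 ratio, so whole reads were not recovered and depth is unknown.

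Genes reaching a mean of 0.5 FPKM were compared as log2(FPKM + 0.5) with limma (version 3.58.1, R 4.3.3), two-sided, with a trended variance and no replicate term, and with Benjamini-Hochberg adjustment over 12422 genes at 0.05. Single genes were also compared by an exact permutation test. RefSeq's gene table for ARS-UCD2.0 gave neighbours and gene spans (11471 genes matched by symbol or synonym), whose coordinates are not given because the builds differ.

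The members, the gene lists and the tests were chosen with earlier results of these data known. Genes were named by rule: all members; in each list the most abundant gene, those with an unadjusted p under 0.05 and markers listed at 0; the 3 profiles nearest to HSPB7; and neighbours of members. Not every gene under this rule is reported, and the neighbours of HSPB7 are not. Further genes were named after their values had been seen. The alternatives were 0.1 or 1 as the pseudocount, a filter at 1 FPKM or none, quantile normalization, median-ratio scaling, removal of a gene span trend, no variance trend, array weights, a replicate block and each library left out.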

Additional observations from a re-analysis of the deposited data

How the results depend on the processing

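Over 16 alternative settings, 116 of 128 values of the 8 genes tested kept their direction and stayed above an adjusted p of 0.05 in limma, and 12 changed sign. HSPB7 and HSPB8 kept their direction and an unadjusted p under 0.05 in all 16. The sign changes were in HSPB11, HSPB2 and CRYAB. HSPB11 was at -0.0012 with median-ratio scaling, -0.014 with quantile normalization and -0.019 without the gene span trend, and lay between -0.29 and 0.36 with 1 library omitted. In the same way HSPB2 ranged from -0.34 to 0.089 and CRYAB from -0.21 to 0.072. The members under an unadjusted p of 0.05 were 2 as reported and 4 without the gene span trend, where HSPB1 and BAG3 joined and 1315 of 11471 genes were under it. They were 3 with median-ratio scaling and without agomir NC replicate 2 (BAG3 joined, with 1361 of 12419 and 1189 of 12421 genes), with quantile normalization and without agomir NC replicate 3 (HSPB1, 1325 of 12422 and 1119 of 12415), and without agomir replicate 1 (HSPB11, 1220 of 12424), and 2 in the other settings. The genes under an adjusted p of 0.05 over all genes were 1 as reported (TRAPPC4), 0 without a filter, 0 without a variance trend and 0 with the replicate block, where the unadjusted p was under 0.05 for 1604, 1249 and 1260 genes in limma, and between 0 and 2 with 1 library left out. The cause was not tested. Same-numbered libraries deviated from their group means with correlations of -0.051, 0.053 and 0.039, and 2 of 6 libraries correlated best with their own number, so the numbers were not taken as pairs. With the replicate block the log2 fold change of HSPB7 was -0.56 with an adjusted p of 0.338 (0.190 to 0.482 over the 16 settings), and 2 members were again under an unadjusted p of 0.05. Median-ratio scaling gave 673 genes higher and 688 lower at an unadjusted p under 0.05, against 824 and 535 as reported. The unknown depth limits what can be said of HSPB2, HSPB7 and HSPB9.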
